A study of Mus musculus with 14 samples.

Results

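Sox10, Gfra3, Cdh19, S100b and Erbb3 are 5 genes used to mark Schwann cells, the glia of peripheral nerve. They were taken by name from the deposited tables of mouse ventricle RNA, in which 26068 genes are listed in at least 1 table, and all 5 are listed in both tables. PolyA-enriched RNA was sequenced in 14 libraries, made up of 4 WT TAC, 3 WT sham, 4 Rad KO TAC and 3 Rad KO sham. Transverse aortic constriction (TAC) narrows the aorta by surgery, so that the left ventricle pumps against a raised pressure, and a sham animal is operated on without the constriction. The treatment label that all 14 libraries carry places TAC 4 weeks before tamoxifen, and the design text places the harvest over 2 months from TAC and over 1 month from the knockout of Rad. The labels state neither the Cre driver nor the strain, age or sex, and they do not say that each library is a separate animal, so a p-value here measures spread between libraries that may be technical in part.

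Schwann cells of the heart wrap or ensheathe the axons of the sympathetic, parasympathetic and sensory nerves that run through the ventricular wall, and most of them belong to the non-myelinating kind. Sox10 is the transcription factor that the lineage needs from neural crest onwards, and it acts on genes of myelin and of ErbB signalling. Axons keep Schwann cells alive through neuregulin 1, which binds ErbB3 on the Schwann cell. Some of these genes are also used by other cells, since melanocytes, which share the neural crest origin, express Sox10, S100b and Erbb3.

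Of the 5 genes, Gfra3 fell 3.60-fold and Sox10 3.10-fold after TAC in WT, and no gene of the 5 passed the test in the libraries labelled Rad KO. The difference of the TAC effects passed for 0 of the 5, and their median log2 fold changes were -0.87 in WT and -0.81 under the Rad KO label. The WT call of Sox10 was lost in 6 of 7 fits that left out 1 library. Rrad, the gene of Rad, did not fall under the Rad KO label, and Esr1 reads split the WT libraries by operation except for WT sham 1, as given below. With both labels in 1 model, Gfra3, Sox10 and Cdh19 fell and S100b and Erbb3 did not pass. Erbb3 stood apart from the other 4. It had the highest level per length in every group, a log2 fold change near 0 in each TAC comparison, and a pattern over the libraries that did not follow theirs. The Sox10, Gfra3 and S100b counts were low, down to 4 reads in a library.

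The stretch of Sox10 that encodes the start of its HMG box, the fold with which Sox proteins bind DNA, is shown because Sox10 is the regulator among the 5. It is bases 588 to 677 of the 2713-base transcript Sox10-201 in GENCODE M21 (chromosome 15), and the 27 capitals encode the run of residues that Sox proteins share.
Sox10: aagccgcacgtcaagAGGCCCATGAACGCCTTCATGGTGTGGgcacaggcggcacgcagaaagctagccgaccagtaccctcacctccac
Of the 5 genes, 1 had a promoter window in the RefSeq table used here (GRCm38.p6), S100b at chr10:76253586-76253885 on the plus strand. This window runs from 250 bases before to 50 after the start in RefSeq, which is not the gene start of 76253853 given below. The window of Chl1, a cell adhesion gene of non-myelinating Schwann cells that fell with Sox10 and Gfra3 in WT, is set beside it, at chr6:103510626-103510925 on the plus strand. Both were searched for the letters ACAAAG and ACAATG, the cores of the Sox motif, on both strands, and capitals mark the match.
S100b: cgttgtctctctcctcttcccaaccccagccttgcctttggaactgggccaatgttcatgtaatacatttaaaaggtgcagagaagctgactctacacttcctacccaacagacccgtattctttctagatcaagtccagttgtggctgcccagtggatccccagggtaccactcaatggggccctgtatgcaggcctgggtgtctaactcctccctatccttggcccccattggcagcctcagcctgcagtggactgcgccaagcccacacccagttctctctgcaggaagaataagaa
Chl1: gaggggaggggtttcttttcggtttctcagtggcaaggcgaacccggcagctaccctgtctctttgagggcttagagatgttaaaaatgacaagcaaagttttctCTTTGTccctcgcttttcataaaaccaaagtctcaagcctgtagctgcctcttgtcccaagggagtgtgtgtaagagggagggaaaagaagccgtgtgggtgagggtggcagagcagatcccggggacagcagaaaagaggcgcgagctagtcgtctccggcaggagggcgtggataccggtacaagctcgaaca
The Chl1 window held 1 match, on the minus strand, and the S100b window held 0. Of the 32851 windows of this length in the table, 28.6% held either set of letters. A match is a description of the letters and not a binding site.

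The shallowest library, Rad KO TAC 4, held 14546176 counts and the deepest, WT sham 1, held 23314792. The targeted gene Rrad, which encodes Rad, did not fall in the libraries labelled Rad KO, with a log2 fold change against WT of -0.14 (SE 0.204, adjusted p = 0.930) after TAC and -0.17 (SE 0.235, adjusted p = 0.944) in sham (edgeR, quasi-likelihood test, Benjamini-Hochberg over all genes tested, as for each adjusted p of a gene here). The labels do not say which stretch of the gene was deleted. Reads assigned to Esr1, the estrogen receptor gene, stood at 0.556 to 1.61 counts per 1000000 (CPM) in the 4 WT TAC libraries, at 1.27 CPM in WT sham 1 and at 1.12 CPM in Rad KO sham 2, and at 339 to 2463 CPM in the other 8 libraries. High and low Esr1 thus cut across the labels, and in WT every TAC library was on the low side while WT sham 2 and 3 were on the high side. Neither gene checks the labels, and whether some libraries carry exchanged labels was not tested, so each WT and Rad KO value, and each direction drawn from it, is that of the libraries so labelled. CPM values are scaled over the 14 libraries by TMM, and group levels are mean ± SD over libraries, with 4 per TAC group and 3 per sham group.

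The depth behind the 5 genes set how finely they could be read. S100b, which encodes a calcium-binding protein of glia, was the thinnest, with 4 to 28 reads per library. Sox10 had 8 to 66 reads and Gfra3, the receptor for the neurotrophic factor artemin, had 6 to 73. Cdh19, a cadherin of nerve glia, had 38 to 136 reads. Erbb3 had 255 to 565 reads. All 5 genes passed the filter on low counts in every comparison. The 4 genes other than Gfra3 lie at the same coordinates in GENCODE M21, and no annotated gene shares exon bases with any of the 5.

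**Figure D1:**
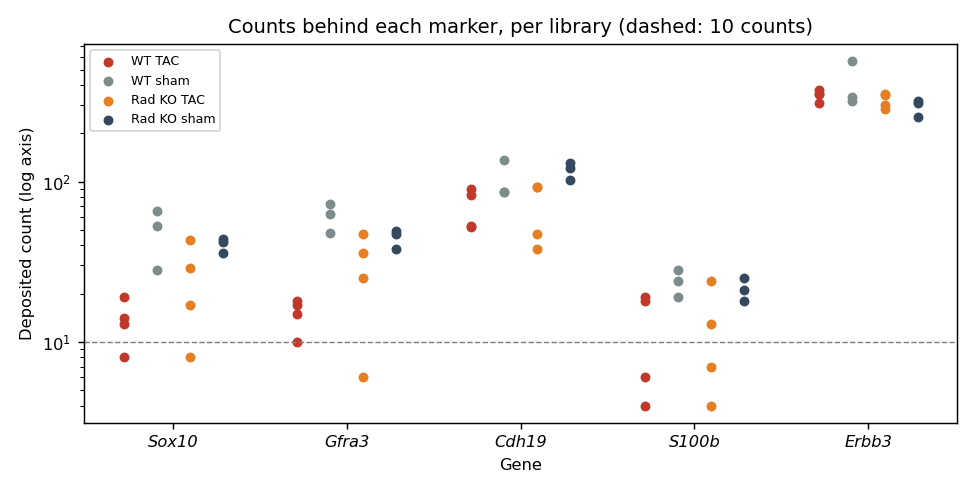
Deposited read counts (log axis) of the 5 genes in the 14 libraries, 1 point per library, coloured by group, with a dashed line at 10 counts. Erbb3 lies at 255 or more in every library, and S100b, Sox10 and Gfra3 each have a library with fewer than 10 counts.

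Sox10 (ENSMUSG00000033006, mm10 chromosome 15, 79154908 to 79165240, minus strand) had 19, 8, 14 and 13 reads in WT TAC 1 to 4, against 66, 53 and 28 reads in WT sham 1 to 3. These counts are 1.25, 0.429, 0.779 and 0.857 CPM in WT TAC, against 2.89, 3.01 and 1.76 CPM in WT sham. Every WT TAC library lay below every WT sham library. Under the Rad KO label, Sox10 stood at 1.07, 0.522, 1.76 and 2.95 CPM in TAC 1 to 4, against 3.12, 2.37 and 2.85 CPM in sham 1 to 3. The Rad KO groups overlapped, since Rad KO TAC 4 lay among the sham libraries, while Rad KO TAC 2 was as low as the WT TAC libraries. The group means were 0.828 ± 0.336 CPM in WT TAC, 2.55 ± 0.689 CPM in WT sham, 1.58 ± 1.05 CPM in Rad KO TAC and 2.78 ± 0.377 CPM in Rad KO sham. Rad KO sham and WT sham, neighbours at the top of that order, did not differ beyond their spread.

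Sox10 was 3.10-fold lower in WT TAC than in WT sham (log2 fold change -1.63, SE 0.371, adjusted p = 0.0443). In the libraries labelled Rad KO the log2 fold change was -0.81 (SE 0.455, adjusted p = 0.398). Across both labels it was -1.21 (SE 0.319, adjusted p = 0.0220). The WT call was lost when any of 6 of the 7 libraries was left out (adjusted p from 0.0274 without WT TAC 1, where it was kept, to 0.176 without WT sham 2), and the log2 fold change then ran from -1.89 to -1.41. The call across both labels was kept in 13 of 14 such fits and was lost without WT sham 1 (adjusted p = 0.0531).

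Gfra3 (ENSMUSG00000024366, chromosome 18, 34689903 to 34720387, minus strand) encodes the co-receptor that, with the kinase Ret, binds artemin. It had 17, 10, 15 and 18 reads in WT TAC 1 to 4, against 63, 73 and 48 reads in WT sham 1 to 3. In CPM these were 1.12, 0.536, 0.835 and 1.19 in WT TAC, against 2.75, 4.14 and 3.01 in WT sham. The gap between the WT groups was wide, since the highest TAC library stood at less than 1.2 CPM and the lowest sham library at more than 2.7 CPM. Under the Rad KO label, Gfra3 stood at 2.95, 0.392, 1.52 and 2.47 CPM in TAC 1 to 4, against 2.82, 3.10 and 3.17 CPM in sham 1 to 3. The 3 Rad KO sham libraries lay close together, and of the TAC libraries Rad KO TAC 2 was far below them and Rad KO TAC 1 among them. The group means were 0.918 ± 0.296 CPM in WT TAC, 3.30 ± 0.736 CPM in WT sham, 1.83 ± 1.13 CPM in Rad KO TAC and 3.03 ± 0.184 CPM in Rad KO sham.

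Gfra3 was 3.60-fold lower in WT TAC than in WT sham (log2 fold change -1.85, SE 0.324, adjusted p = 0.0173), the largest change of the 5 genes. In the libraries labelled Rad KO the log2 fold change was -0.71 (SE 0.476, adjusted p = 0.478). Across both labels it was -1.27 (SE 0.330, adjusted p = 0.0203), and this call was kept in all 14 fits that left out 1 library. The WT call was lost without WT sham 2 (adjusted p = 0.0908) or without WT sham 3 (adjusted p = 0.0948).

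Cdh19 (ENSMUSG00000047216, chromosome 1, 110888326 to 110977584, minus strand) was read at 3.48, 4.83, 4.56 and 3.43 CPM in WT TAC 1 to 4, against 5.95, 4.88 and 5.40 CPM in WT sham 1 to 3. The WT groups did not overlap, but WT TAC 2 and WT sham 2 nearly met. Cdh19 in the Rad KO libraries stood at 2.95, 2.48, 5.60 and 6.37 CPM in TAC 1 to 4, against 9.06, 8.63 and 6.60 CPM in sham 1 to 3. Here too every TAC library lay below every sham library, with Rad KO TAC 1 and 2 at less than the lowest WT library. The group means were 4.07 ± 0.725 CPM in WT TAC, 5.41 ± 0.535 CPM in WT sham, 4.35 ± 1.92 CPM in Rad KO TAC and 8.09 ± 1.31 CPM in Rad KO sham. Cdh19 had a log2 fold change of -0.40 (SE 0.197, adjusted p = 0.330) in WT and -0.89 (SE 0.309, adjusted p = 0.179) in the libraries labelled Rad KO, and neither passed. Across both labels it fell 1.57-fold (log2 fold change -0.65, SE 0.198, adjusted p = 0.0426), and this call was lost in 9 of 14 fits that left out 1 library (adjusted p from 0.0234 to 0.0990).

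S100b (ENSMUSG00000033208, chromosome 10, 76253853 to 76261159, plus strand) had 4, 18, 19 and 6 reads in WT TAC 1 to 4, against 28, 24 and 19 reads in WT sham 1 to 3. In CPM these were 0.263, 0.965, 1.06 and 0.396 in WT TAC, against 1.22, 1.36 and 1.19 in WT sham. The WT groups did not overlap, though WT TAC 2 and 3 came close to sham. S100b in the Rad KO libraries stood at 0.817, 0.261, 0.426 and 1.65 CPM in TAC 1 to 4, against 1.56, 1.65 and 1.16 CPM in sham 1 to 3. Rad KO TAC 4 was again at the sham level, and the other Rad KO TAC libraries were below it. The group means were 0.670 ± 0.399 CPM in WT TAC, 1.26 ± 0.0898 CPM in WT sham, 0.787 ± 0.618 CPM in Rad KO TAC and 1.46 ± 0.257 CPM in Rad KO sham. The log2 fold change was -0.87 (SE 0.458, adjusted p = 0.366) in WT, -0.89 (SE 0.526, adjusted p = 0.424) in the libraries labelled Rad KO and -0.88 (SE 0.358, adjusted p = 0.125) across both, and none passed. Without Rad KO TAC 4 the value across both labels was -1.16 and passed (adjusted p = 0.0330).

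Erbb3 (ENSMUSG00000018166, chromosome 10, 128567523 to 128589652, minus strand) encodes the ErbB receptor that binds neuregulin and signals through its partner ErbB2. It had 23.3, 20.1, 17.1 and 23.3 CPM in WT TAC 1 to 4, against 24.7, 19.2 and 20.1 CPM in WT sham 1 to 3. Erbb3 in the Rad KO libraries stood at 18.9, 23.2, 21.3 and 19.6 CPM in TAC 1 to 4, against 18.9, 21.1 and 20.2 CPM in sham 1 to 3. The 4 groups overlapped throughout. The group means were 20.97 ± 2.97 CPM in WT TAC, 21.3 ± 2.94 CPM in WT sham, 20.7 ± 1.92 CPM in Rad KO TAC and 20.1 ± 1.08 CPM in Rad KO sham, and no pair of neighbours in that order differed beyond its spread. The log2 fold change was -0.03 (SE 0.142, adjusted p = 0.954) in WT, 0.05 (SE 0.110, adjusted p = 0.848) in the libraries labelled Rad KO and 0.01 (SE 0.0875, adjusted p = 0.966) across both. The sign of these values turned under several of the alternatives.

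**Figure D2:**
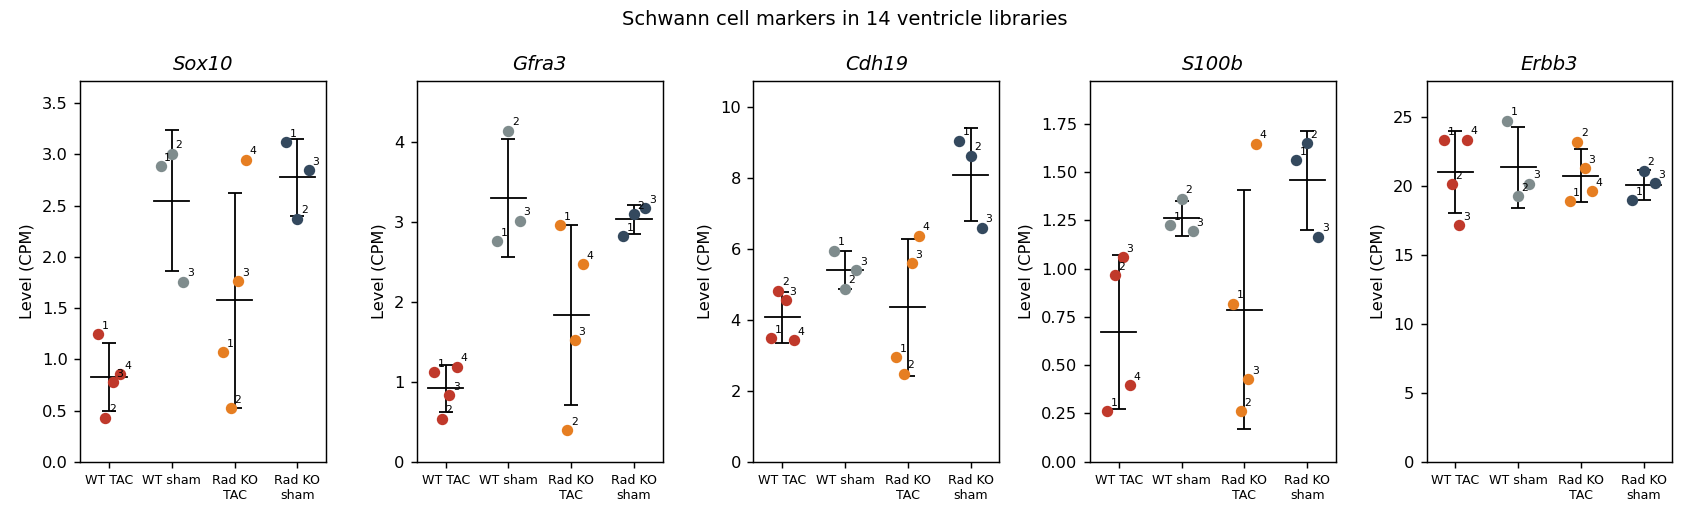
Level (CPM, linear axes from 0) of the 5 genes in each library, with the replicate number beside each point, the mean as a long bar and the SD as whiskers (n = 4 per TAC group, 3 per sham group). Every WT TAC point lies below every WT sham point for Sox10, Gfra3, Cdh19 and S100b. For Sox10, Gfra3 and S100b the Rad KO TAC points spread from Rad KO TAC 2 at the bottom to the sham level. For Cdh19 Rad KO TAC 2 is also lowest, and every Rad KO TAC point lies below the Rad KO sham points. Erbb3 is level across the groups.

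In WT, 2 of the 5 genes fell after TAC (Gfra3 and Sox10), where 1.08% of the 14323 genes tested fell and 3.09% changed in either direction. The median log2 fold change of the 5 was -0.87, beside -0.0013 for all genes. In the libraries labelled Rad KO, 0 of the 5 passed by edgeR, where 0.644% of 14122 genes fell and 1.69% changed in either direction, and the median of the 5 was -0.81, beside 0.0085 for all genes. Under that label 1 of the 5 had an unadjusted p under 0.05 in edgeR, Cdh19 with 0.0161, and DESeq2 called 0 of the 5. Across both labels 3 of the 5 fell, where 4.75% of 14731 genes fell and 11.2% changed in either direction, and the median was -0.88, beside -0.0017 for all genes. In a bulk sample, fewer Schwann cells and less of an RNA per cell cannot be told apart.

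The authors' deposited table gave the same directions. For WT, TAC over sham, the authors' deposited table has a log2 fold change of -1.63 for Sox10 (adjusted p = 0.00651) and -1.85 for Gfra3 (adjusted p = 0.000147). The authors' deposited table lists Cdh19 at -0.40, S100b at -0.88 and Erbb3 at -0.02 in WT, with adjusted p of 0.442, 0.465 and 0.981. For the libraries labelled Rad KO, the authors' deposited table lists Sox10 at -0.82, Gfra3 at -0.72, Cdh19 at -0.89, S100b at -0.89 and Erbb3 at 0.05. The smallest adjusted p of these 5 in the authors' deposited table was 0.0958, for Cdh19.

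Every WT TAC library lay below every WT sham library for 4 of the 5 genes, where 8.59% of all genes tested showed this. In the libraries labelled Rad KO it held for 1 of the 5, Cdh19, where 7.73% of genes showed it. Cdh19 was also the 1 gene of the 5 that showed it in both labels, where 1.92% of genes did. Within the TAC groups the libraries labelled Rad KO were the more spread for Sox10, Gfra3, Cdh19 and S100b, and not for Erbb3. Their lowest library was Rad KO TAC 2, with 8 reads of Sox10, 6 of Gfra3 and 4 of S100b, so these ratios rest on few reads. How many of all genes showed this was not counted. The highest over the lowest CPM was 5.64 for Sox10, 7.54 for Gfra3, 2.57 for Cdh19 and 6.30 for S100b in Rad KO TAC, against 2.91, 2.21, 1.41 and 4.03 for the same genes in WT TAC. For Erbb3 it was 1.23 in Rad KO TAC and 1.36 in WT TAC.

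Whether the TAC effect differed between the labels was tested in 1 model of the 4 groups. For the difference of the TAC effects 0 of the 5 genes passed, where 0% of genes passed. The difference, Rad KO minus WT, was 0.82 for Sox10 (SE 0.627, unadjusted p = 0.211) and 1.13 for Gfra3 (SE 0.617, unadjusted p = 0.0867), and it was -0.49 for Cdh19, -0.02 for S100b and 0.08 for Erbb3. The smaller values of Sox10 and Gfra3 in the libraries labelled Rad KO are therefore not shown to differ from those in WT. DESeq2 called 8 genes in all for the difference, and 0 of the 5 had an unadjusted p under 0.05 in edgeR.

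For Rad KO against WT after TAC, 0 of the 5 passed, where 0.0136% of genes passed. Gfra3 averaged 1.83 ± 1.13 CPM in Rad KO TAC and 0.918 ± 0.296 CPM in WT TAC (SD, n = 4 each), a log2 fold change of 1.01 (SE 0.434, unadjusted p = 0.0342, adjusted p = 0.585). For Sox10 it was 0.93 (SE 0.442, adjusted p = 0.644), and for Cdh19, S100b and Erbb3 it was 0.09, 0.19 and -0.01. In sham, 0 of the 5 passed, where 0% of genes passed. There Cdh19 had the largest log2 fold change of the 5 for Rad KO against WT, 0.58 (SE 0.289, adjusted p = 0.831), and the others lay between -0.12 and 0.21.

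The Esr1 split bears on the WT comparison, since WT sham 1 was the 1 WT sham library on the low side, as all WT TAC libraries were. WT sham 1 had 2.89 CPM of Sox10 and 2.75 CPM of Gfra3, above every WT TAC library. Without WT sham 2 and 3 the log2 fold change in WT was -1.81 for Sox10 and -1.59 for Gfra3, close to the values with them, but with 1 sham library left neither passed (adjusted p = 0.530 and 0.598), and 0 genes passed in all. With the Esr1 level as a covariate across both labels, Sox10 had a log2 fold change of -1.15 (adjusted p = 0.0336), Gfra3 -1.17 (adjusted p = 0.0292) and Cdh19 -0.69 (adjusted p = 0.0432). Without the sham libraries of low Esr1, WT sham 1 and Rad KO sham 2, the values were -1.22, -1.35 and -0.60 for Sox10, Gfra3 and Cdh19, and none passed (adjusted p = 0.0621, 0.0519 and 0.149).

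Levels between the genes were compared on the deposited FPKM, which is per gene length, within each table, since the tables were normalized separately. Erbb3 had the highest FPKM in every group, 3.47 in WT TAC, 3.52 in WT sham, 3.43 in Rad KO TAC and 3.31 in Rad KO sham. Sox10 had the lowest, 0.270 in WT TAC, 0.828 in WT sham, 0.514 in Rad KO TAC and 0.905 in Rad KO sham. The order of the 3 in between differed by group. In WT sham Gfra3 stood at 1.64 FPKM and Cdh19 at 1.25 FPKM, and in WT TAC Gfra3 stood at 0.459 FPKM and Cdh19 at 0.945 FPKM. S100b, at 0.448 FPKM in WT TAC and 0.840 FPKM in WT sham, lay beside Gfra3 in the first group and beside Sox10 in the second, within their SDs.

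From library to library the other genes differed in how closely they followed Sox10. As a description over the 14 libraries on log2(CPM + 1), which share their operation and label, Gfra3 ranked 32 of 12864 genes by likeness to Sox10 (Pearson r = 0.858). Cdh19 ranked 320 (r = 0.748), S100b 735 (r = 0.668) and Erbb3 7108 (r = -0.07). With each group's mean subtracted, so that only the differences among libraries of a group remain, the r with Sox10 was 0.616 for Gfra3, 0.591 for Cdh19 and 0.358 for S100b. S100b was most like Cdh19 of the 5 (r = 0.784, and 0.645 with group means subtracted). Gfra3 had an r of 0.561 with Cdh19 and 0.680 with S100b, and only 0.198 and 0.399 with group means subtracted. Erbb3 ran from -0.52 with S100b to -0.07 with Sox10. In sparse counts such values are imprecise.

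None of the 3 genes most like each of the 5 is on the nerve lists described here. For Sox10 they were Tnfaip8 (r = 0.927), Zfp664 (r = 0.924) and Cox7c (r = 0.909), of which Cox7c is a subunit of cytochrome oxidase. For Gfra3 they were Slc35f1 (r = 0.921), Tmem56 (r = 0.908) and the latrophilin Adgrl1 (r = 0.905). For Cdh19 they were the splicing factor Rbm39 (r = 0.908), Rictor of the mTOR complex (r = 0.878) and Gm31251 (r = 0.874). For S100b they were Wdr76 (r = 0.815), the lipase inhibitor G0s2 (r = 0.797) and Hacd2 (r = 0.794). For Erbb3 they were the kinase Rps6ka2 (r = 0.854), Gm5422 (r = 0.817) and Rnf167 (r = 0.810). Among nerve genes, Kcna1, a potassium channel of axons and glia looked up after its values were seen, ranked 5 for Sox10 (r = 0.908). Other genes of non-myelinating Schwann cells ranked lower for Sox10. L1cam ranked 110 (r = 0.813), Chl1 235 (r = 0.774) and Lgi4 796 (r = 0.660). Scn7a ranked 2630 (r = 0.43), Ngfr 3838 (r = 0.287) and Gpm6b 7209 (r = -0.09).

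Myelin genes were measured as a list of 20, of which 17 are in the tables. Their values are read beside the 5 because Sox10 acts on many of them. In WT 1 of 8 tested fell and 0 rose, with a median log2 fold change of 0.20, and in the libraries labelled Rad KO 0 of 8 passed, with a median of 0.03. Across both labels 3 of 10 tested fell, Mbp and Gjc3 among them, and 2 rose (Pmp22 and Egr2), with a median of 0.08, where 4.75% of all genes fell and 6.4% rose. Among the thinnest of the list, Mag, a myelin-associated glycoprotein, had 0 to 7 reads and was at 0 in 6 of 14 libraries, and Gldn and Pllp were as thin.

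Mbp, myelin basic protein, averaged 2.10 ± 0.285 CPM in WT TAC, 4.58 ± 2.15 CPM in WT sham, 2.86 ± 0.950 CPM in Rad KO TAC and 4.11 ± 1.22 CPM in Rad KO sham. Across both labels it fell (log2 fold change -0.83, adjusted p = 0.0373), a call lost in 8 of 14 fits that left out 1 library. Gjc3, a connexin of glia named after its values were seen, was at 2 to 16 reads per library and fell across both labels (log2 fold change -1.20, adjusted p = 0.0492), a call lost in 12 of 14 such fits. Gjc3 passed the filter on low counts only through sham libraries, with 5 to 16 reads there and 2 to 9 in TAC libraries. Pmp22, a myelin protein that many other cells also make, averaged 58.8 ± 13.4 CPM in WT TAC and 42.9 ± 5.10 CPM in WT sham, and rose across both labels (log2 fold change 0.48, adjusted p = 0.0118). Egr2, a myelination factor that is also an immediate early gene, averaged 2.78 ± 2.19 CPM in WT TAC and 0.779 ± 0.323 CPM in WT sham, and rose across both labels (log2 fold change 1.88, adjusted p = 0.0153). The list thus held members that went both ways.

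Of 26 genes of non-myelinating, precursor and repair Schwann cells, all 26 are in the tables. In WT, where 1.08% of all genes fell, 2 of 19 tested fell, Chl1 and Ngfr, and 0 rose, with a median log2 fold change of -0.04. In the libraries labelled Rad KO 0 of 18 passed, with a median of -0.10. Across both labels Chl1 fell and Pou3f1 rose of 20 tested, against 4.75% of all genes that fell and 6.4% that rose, with a median of -0.23. The call of Pou3f1 was lost in 6 of the 14 fits that left out 1 library. Pou3f1 had 3 to 13 reads in the sham libraries and passed the filter on low counts only through TAC libraries. The most abundant members, among them Art3, Sema3b and Mcam, are also made by other cells of the heart.

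Chl1 had 0.853, 1.23, 0.445 and 1.06 CPM in WT TAC 1 to 4, against 2.36, 2.38 and 2.89 CPM in WT sham 1 to 3. Chl1 in the Rad KO libraries stood at 1.51, 0.196, 1.64 and 1.99 CPM in TAC 1 to 4, against 2.90, 3.82 and 1.68 CPM in sham 1 to 3. The WT groups did not overlap, the Rad KO groups did, and the lowest library was again Rad KO TAC 2. Chl1 had a log2 fold change of -1.49 (SE 0.343, adjusted p = 0.0464) in WT, a call lost in each of the 7 fits that left out 1 library, -1.06 (adjusted p = 0.341) in the libraries labelled Rad KO and -1.28 (adjusted p = 0.0218) across both, a call kept in 12 of 14 such fits.

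Ngfr, the p75 neurotrophin receptor of glia and neurons, had 1.05, 1.13, 0.835 and 0.330 CPM in WT TAC 1 to 4, against 4.29, 2.21 and 2.13 CPM in WT sham 1 to 3. Ngfr in the Rad KO libraries stood at 4.02, 0.784, 1.03 and 1.23 CPM in TAC 1 to 4, against 1.26, 0.725 and 0.776 CPM in sham 1 to 3. Here the WT sham libraries were the high ones, and Rad KO TAC 1 stood above the rest of its label. Ngfr fell in WT (log2 fold change -1.77, SE 0.409, adjusted p = 0.0471), a call lost in each of the 7 fits that left out 1 library, and had a log2 fold change of 0.96 (adjusted p = 0.440) in the libraries labelled Rad KO. The difference of its TAC effects, 2.72 (SE 0.763, unadjusted p = 0.00264), did not pass over all genes (adjusted p = 0.672).

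L1cam and Lgi4, genes of axon contact and glial signalling looked up after their values were seen, had log2 fold changes below 0 in both labels without passing. They were -0.47 and -0.43 in WT, and -0.61 and -0.28 in the libraries labelled Rad KO. The list of non-myelinating, precursor and repair genes went both ways. Of those tested, 10 of 19 lay below 0 in WT, 10 of 18 under the Rad KO label and 13 of 20 across both. Kcna1 averaged 0.785 ± 0.552 CPM in WT TAC, 1.79 ± 0.403 CPM in WT sham, 1.12 ± 0.824 CPM in Rad KO TAC and 2.70 ± 0.537 CPM in Rad KO sham, and did not pass across both labels (log2 fold change -1.25, adjusted p = 0.0785). Its lowest library, at 0 reads, was Rad KO TAC 2.

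**Figure D3:**
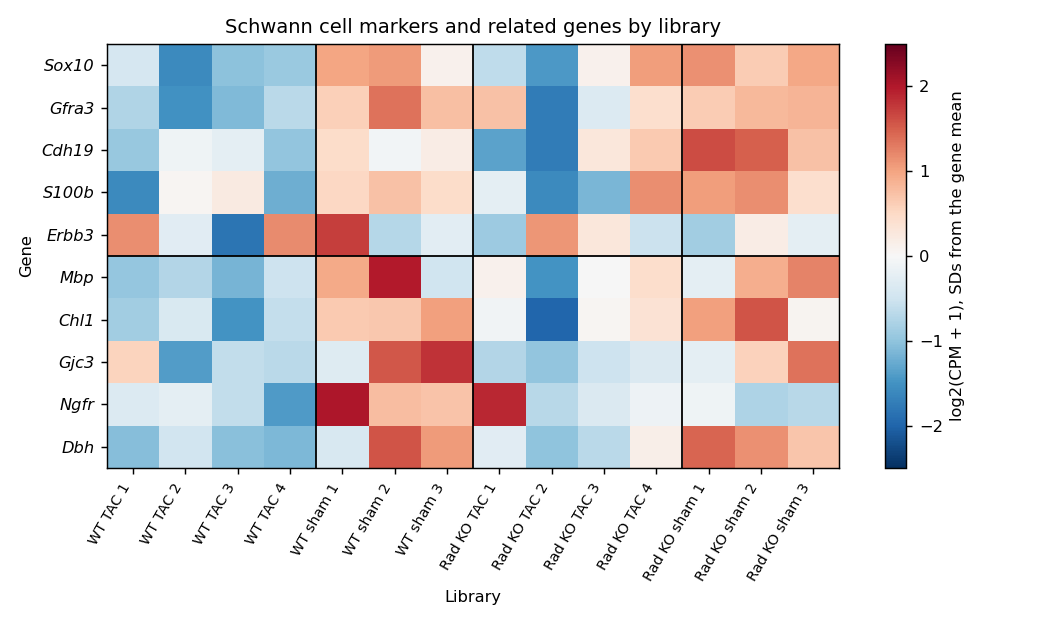
Level of the 5 genes (above the line) and of related nerve genes (below it) in each of the 14 libraries, as log2(CPM + 1) in SDs from the gene's mean over the libraries. Blue is below and red above the mean. Mbp, Chl1, Gjc3, Ngfr and Dbh are drawn below the line, each called lower after TAC in WT or across both labels. Genes of the same lists called higher, Pmp22, Egr2, Pou3f1 and Uchl1, are not drawn. For Sox10, Gfra3 and Chl1 the WT TAC columns and Rad KO TAC 2 are blue, and Erbb3 has its own pattern.

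The neuregulin and ErbB genes give the setting of Erbb3. Of 18 listed, 17 are in the tables. In WT, where 2% of all genes rose, 1 of 15 tested rose, Hbegf, and 0 fell, with a median log2 fold change of 0.11, and in the libraries labelled Rad KO 0 of 15 passed, with a median of -0.01. Across both labels 2 of 16 rose (Hbegf and Ereg) and 1 fell (Erbb4), against 6.4% and 4.75% of all genes, with a median of 0.06. With 1 library left out, the call of Ereg was lost in 10 of 14 fits and that of Hbegf in WT in 3 of 7. Ereg had 0 to 3 reads in the sham libraries and passed the filter on low counts only through TAC libraries. Hbegf, a ligand of EGFR and ErbB4, had a log2 fold change of 0.86 (SE 0.165, adjusted p = 0.0243) in WT and 0.80 (adjusted p = 0.00264) across both. Erbb4, the neuregulin receptor of cardiomyocytes, had -0.61 in each label and -0.61 (SE 0.148, adjusted p = 0.0141) across both. Nrg1 itself was thin, at 3 to 32 reads, and Nrg3 is not analysed here.

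The GDNF family gives the setting of Gfra3. Of 10 listed ligands and receptors 9 are in the tables and 6 were tested, of which 0 passed in WT, in the libraries labelled Rad KO or across both, by edgeR. The median log2 fold change was -0.51 in WT, -0.37 in the libraries labelled Rad KO and -0.49 across both. Gfra1, the co-receptor for GDNF, had a log2 fold change of -0.59 (unadjusted p = 0.0329, adjusted p = 0.148) across both, and Gfra4 had -0.47 (unadjusted p = 0.0102, adjusted p = 0.0722). The ligand neurturin, Nrtn, had 0.33 (unadjusted p = 0.0486, adjusted p = 0.187). Artn, the ligand of Gfra3, had 0 to 4 reads per library and was not tested.

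Axons were read through autonomic neuron genes, of which 20 of 24 are in the tables. None of 8 tested passed in WT and none of 7 in the libraries labelled Rad KO, with medians of 0.17 and 0.21. Across both labels 1 of 9 fell, Dbh, and 1 rose, Uchl1, against 4.75% and 6.4% of all genes, with a median of 0.25. Dbh, the noradrenaline-making enzyme of sympathetic nerves, had 2.04, 2.73, 2.06 and 1.98 CPM in WT TAC 1 to 4, against 2.84, 6.86 and 5.52 CPM in WT sham 1 to 3. Dbh in the Rad KO libraries stood at 3.02, 2.09, 2.49 and 3.70 CPM in TAC 1 to 4, against 6.53, 5.73 and 4.72 CPM in sham 1 to 3. In each label every TAC library lay below every sham library, which 1.92% of genes showed. The WT groups nearly met, at WT TAC 2 and WT sham 1, and WT sham 1 is the WT sham library of low Esr1.

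Dbh had a log2 fold change of -1.19 (SE 0.301, adjusted p = 0.0632) in WT, -0.99 (SE 0.239, adjusted p = 0.0710) in the libraries labelled Rad KO and -1.09 (SE 0.192, adjusted p = 0.00232) across both, and the last call was kept in all 14 fits that left out 1 library. Under the alternatives other than leaving out 1 library, the log2 fold change of Dbh ran from -1.19 to -0.36 in WT. Across both labels it then ran from -1.25 to -0.81. Uchl1, a ubiquitin hydrolase of neurons that other stressed cells also make, had a log2 fold change of 1.64 (SE 0.338, adjusted p = 0.00579) across both. Slc6a2 and Npy, further genes of sympathetic neurons, had at most 3 reads in a library. The cell bodies of sympathetic neurons, where most of these RNAs lie, are outside the ventricle.

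**Figure D4:**
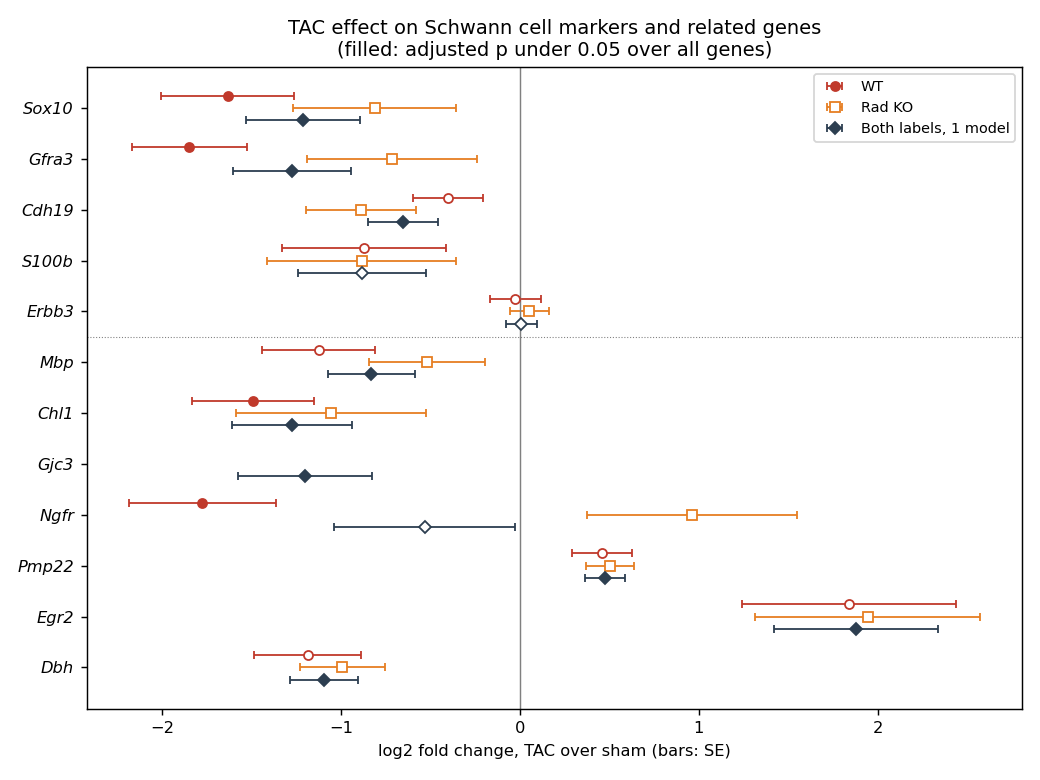
Log2 fold change of TAC over sham, with bars for the SE, for the 5 genes (above the line) and related nerve genes, in WT (circles), in the libraries labelled Rad KO (squares) and in 1 model of both (diamonds), filled where the adjusted p over all genes was under 0.05. Gjc3 is drawn for the joint model only. Sox10 and Gfra3 are filled in WT and in the joint model, and Erbb3 sits at 0 in all 3.

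Melanocytes share Sox10, S100b and Erbb3. Of their pigment genes, Pmel had 0 to 6 reads and Mlana 0 to 4, while Dct had 23 to 385, and Tyr and Tyrp1 are not analysed here. Mitf, with 631 to 1264 reads, and Kit, with 50 to 127, were well above 0. Of 10 melanocyte genes 8 are in the tables, with a summed level of 62.5 to 73.1 CPM in WT TAC, 56.0 to 65.8 CPM in WT sham, 59.2 to 63.2 CPM in Rad KO TAC and 66.2 to 73.2 CPM in Rad KO sham, most of it Mitf. Dct, a melanin enzyme, went the other way from Sox10, at 14.8 ± 4.08 CPM in WT TAC, 2.46 ± 1.23 CPM in WT sham, 7.96 ± 2.97 CPM in Rad KO TAC and 3.39 ± 0.687 CPM in Rad KO sham. Dct rose in WT (log2 fold change 2.56, adjusted p = 0.00838) and across both labels (1.90, adjusted p = 0.000936). Of the 4 tested, Mitf fell across both (log2 fold change -0.35, adjusted p = 0.00985), and the median across both was 0.59.

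Markers of other cell types of the ventricle were counted across both labels, where 6.4% of all genes tested rose and 4.75% fell. Fibroblast markers had 5 of 11 tested higher and 0 lower, with summed levels of 2958 to 4708 CPM in WT TAC, 2557 to 3519 CPM in WT sham, 2575 to 5396 CPM in Rad KO TAC and 2642 to 3101 CPM in Rad KO sham. Smooth muscle and pericyte markers had 2 of 10 lower, Acta2 and Abcc9, with summed levels of 913 to 1531 CPM in WT TAC, 1506 to 1941 CPM in WT sham, 812 to 1902 CPM in Rad KO TAC and 1811 to 2305 CPM in Rad KO sham. Acta2 stood at 158 CPM in WT sham 1, of low Esr1, beside 156 CPM in WT TAC 1. In WT sham 2 and 3, of high Esr1, it stood at 610 and 675 CPM. The call of Abcc9 was lost in 4 of the 14 fits that left out 1 library. Endothelial markers had 0 of 12 called and macrophage markers 0 of 12, with median log2 fold changes of -0.07 and 0.11. Ventricular cardiomyocyte markers had 1 higher, Actn2, and 1 lower, Ryr2, of 12, and the call of Ryr2 was lost in 10 of the 14 fits that left out 1 library. Epicardial markers had 0 of 7 called, adipocyte markers 0 of 1, and atrial and conduction markers 1 of 5, Hcn4, which fell. The part of these shifts in the levels of the 5 genes was not tested.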

How the data were processed

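PolyA-enriched RNA of 14 mouse ventricle libraries was measured. The authors deposited 2 tables, 1 for each genotype label, which per the file headers hold for every gene the count of each TAC and sham library. The normalized signal deposited beside it is that count over 1 factor per library, and the deposited FPKM is that count over gene length and a library constant (both checked on the values). The authors' log2 fold change, p-value and adjusted p-value of TAC over sham stand in the same tables. The submitters' processing notes name HISAT2, DESeq2, edgeR and the build mm10, with no version or role, and neither the read counter nor strandedness is stated. All per-sample columns were assigned to a sample, leaving 0 without.

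From the deposited counts, TAC was tested within each label on 7 libraries with edgeR 4.0.16 in R 4.3.3 (TMM, filterByExpr with a minimum count of 10 and total of 15, quasi-likelihood F-test, Benjamini-Hochberg adjustment over all genes tested, threshold 0.05). The difference of the TAC effects and Rad KO against WT used 1 fit of 14 libraries with a mean for each group. The TAC effect across both labels used a separate fit of the 14 libraries, with the genotype label as a covariate. Each started from the 22136 genes that both tables list. The SE is the size of the log2 fold change over the square root of F. Likeness used log2(CPM + 1) of genes with a mean of at least 20 counts. Totals per library were 14546176 to 23314792 counts, so S100b rested on as few as 4 reads. The scripts were tested on simulated data, with 100 genes changed 2-fold and 100 changed 4-fold. At the 0.05 threshold, unchanged genes made up 10.3% of calls for TAC in WT, 6.11% in Rad KO and 3.31% across both.

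The members and lists were chosen with earlier results of these data known. Named with values were the 5 genes, Rrad, Esr1, up to 4 genes per list past the threshold with the smallest p, in 4 lists the 3 of highest mean count, and the 3 genes most like each member, and others are said to be looked up after their values were seen. As alternatives the tests were rerun with DESeq2 1.42.0, with the size factors of DESeq2 in edgeR, without the filter, with a block for replicate number, in 1 model of 14 libraries, at an adjusted p under 0.01, without each library in turn or those of high or low Esr1, and with Esr1 as a covariate. Results for some genes of the lists are left out. The planned comparison of proteins was not run, since no protein table was used here. Sequences are from RefSeq (GRCm38.p6) and GENCODE M21. Python 3.11.15 with matplotlib 3.10.9 drew the figures.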

Additional observations from a re-analysis of the deposited data

How the results depend on the processing

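Counts of the 5 genes called moved as follows. In WT, where 2 were called, 1 was called with the replicate block, 1 in the model of 14 libraries, 0 at an adjusted p under 0.01, 0 without WT sham 2 and 3, and 0 to 2 when 1 library was left out. Across both labels, where 3 were called, 2 were called with the replicate block, 0 at an adjusted p under 0.01, 0 without the sham libraries of low Esr1, 0 without WT sham 2 and 3, and 1 to 4 when 1 library was left out. In the libraries labelled Rad KO it was 0 under each alternative run. With the block the call of Sox10 in WT was lost (log2 fold change -1.67, adjusted p = 0.0817). That of Cdh19 across both labels was lost too (log2 fold change -0.73, adjusted p = 0.0527). Correlations of same-numbered deviations ran from -0.142 to 0.142, and whether a batch follows the replicate numbers was not tested.

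Counts over all genes moved more. With DESeq2 they were 933 for TAC in WT, 753 for TAC in Rad KO, 8 for the difference, 15 between the labels in sham and 96 between them after TAC, where edgeR gave 442, 239, 0, 0 and 2. Without a filter they were 782 (TAC in WT), 571 (TAC in Rad KO) and 21 (between the labels after TAC). With the replicate block they were 431 (TAC in Rad KO) and 1 (between the labels after TAC). At an adjusted p under 0.01 they were 59 in WT, 16 in Rad KO, 1 between the labels after TAC and 600 across both. Without WT sham 2 and 3 they were 0 in WT and 626 across both, and without the sham libraries of low Esr1 1018 across both. Leaving out 1 library gave 15 to 614 in WT, 9 to 536 in Rad KO, 0 to 4 for the difference, 0 to 1 between the labels in sham, 1 to 32 between them after TAC and 1027 to 2064 across both. The cause was not tested.

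Of 530 values of the 5 genes under alternatives, 461 kept their direction and side of the threshold, 34 lost the call, 1 gained it and 34 turned sign, 20 of them for Erbb3, none past the threshold. Turned values across both labels were -0.0064, -0.0506 and -0.0179 for Erbb3 and 0.0207, 0.0243 and 0.0094 for Adam10 (block, without WT sham 2 and 3, Esr1 covariate). In WT without WT sham 2 and 3 they were -0.0392 for Mal and 0.0020 for Adam10, and in Rad KO with the block 0.0056 for Lrig1. For results that turned sign at least once with 1 library left out, the values over all such fits ran for TAC in WT from -0.0988 to 0.0929 for Erbb3, -0.0059 to 0.3808 for Nrtn and -0.0021 to 0.4086 for Stmn2, in Rad KO from -0.0088 to 0.0925 for Erbb3, -0.0306 to 0.0801 for Adam10 and -0.1285 to 0.0072 for Lrig1, and across both labels from -0.0232 to 0.0631 for Erbb3 and -0.0475 to 0.0179 for Adam10. For the difference of the TAC effects they ran from -0.6459 to 0.2771 for S100b and -0.0375 to 0.1492 for Erbb3. Between the labels they ran in sham from -0.0865 to 0.2441 for Sox10, -0.2428 to 0.0731 for Gfra3 and -0.1631 to 0.0253 for Erbb3, and after TAC from -0.1485 to 0.2854 for Cdh19, -0.4384 to 0.4846 for S100b and -0.1003 to 0.0404 for Erbb3.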

Other observations

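The neurotrophin genes, with which axons and glia are kept alive, had 1 of 9 tested lower across both labels, where 4.75% of all genes fell, and 0 higher, the 1 being Lifr, the receptor for leukemia inhibitory factor (log2 fold change -0.49, adjusted p = 0.00848). Their summed level was 80.4 to 117 CPM in WT TAC, 118 to 127 CPM in WT sham, 79.1 to 114 CPM in Rad KO TAC and 115 to 132 CPM in Rad KO sham. Of the S100 genes, S100a10 rose in the libraries labelled Rad KO (log2 fold change 0.63, adjusted p = 0.0186) and across both (0.46, adjusted p = 0.00396). The list it came from had 8 genes tested, among them S100pbp, which encodes a protein that binds S100P and is no S100 gene, and which fell across both. Among the relatives of Sox10, 1 of 10 tested fell across both labels, Sox6 (log2 fold change -0.39, adjusted p = 0.0496), a call lost in 10 of the 14 fits that left out 1 library. Of the cadherins other than Cdh19, 0 of 8 tested passed across both by edgeR.

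The 4 Rad KO TAC libraries differed in load markers looked up after their values were seen. Rad KO TAC 2, the lowest of its group for Sox10, Gfra3, Cdh19 and S100b, had 605 CPM of Nppb and 2260 CPM of Myh7, the highest of its group, but 220.0 CPM of Postn, the second lowest. Rad KO TAC 4, the highest of its group for Sox10, Cdh19 and S100b, had 789 CPM of Myh7 and 62.8 CPM of Postn, the lowest of its group, but 315.5 CPM of Nppb, the second highest. Among WT TAC libraries WT TAC 3 had 1131 CPM of Nppb and 6904 CPM of Myh7, the highest of its group, and 424 CPM of Postn. WT TAC 3 was second lowest of its group for Sox10 and Gfra3, second highest for Cdh19 (4.56 CPM) and highest for S100b (1.06 CPM). Esr1 stood at 1123, 339, 1338 and 2463 CPM in Rad KO TAC 1 to 4. Sox10 and Cdh19 had the same order over these libraries, and Gfra3 and S100b did not. Whether load and the 5 genes are related was not tested, nor was Esr1 within Rad KO TAC.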
